A study of Mus musculus with 12 samples.

Results

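Matrix metalloproteinases (MMPs), ADAMTS proteases and the tissue inhibitors of metalloproteinases (TIMPs) were taken by gene symbol. Every gene of the deposited RPM table (reads scaled to the library total) whose symbol reads Mmp, Timp, Adamts or Adamtsl followed by a number was a member. These were 44 of 17311 genes, namely 17 Mmp, 4 Timp, 18 Adamts and 5 Adamtsl genes. In the wider table of 41128 genes 51 symbols match, and the 7 outside the RPM table (Adamts18, Mmp10, Mmp1a, Mmp1b, Mmp20, Mmp21 and Mmp25) held at most 11 counts each over the 12 libraries. The 5 Adamtsl genes encode ADAMTS-like proteins without a protease domain, so the name of protease does not hold for them.

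The 12 mouse libraries of polyadenylated RNA form 5 groups in 2 experiments. Peritumoral hepatocytes (3 libraries) came from livers with tumours, started at an age of 8 weeks by hydrodynamic injection of plasmids (1 µg SB11 transposase, 20 µg myc-NICD, an active Notch, and 4 µg myr-ha-Akt, an active Akt) and grown for 8 weeks. Untreated hepatocytes (3 libraries) are their comparison, and both groups carry the Lats1tm1.1Jfm/RjoJ and Lats2tm1.1Jfm/RjoJ alleles, which are conditional (floxed) alleles, under titles that call them WT. Livers of CD-1 IGS mice were taken 24 h (2 libraries) and 48 h (2 libraries) after a single intraperitoneal injection of the liver toxin thioacetamide (TAA), and livers labelled as TAA controls (2 libraries) are the comparison. The sources used here do not state Cre, the TAA dose or what the controls received. Every label states an age of 8 weeks and hepatocytes from a Percoll gradient, also for the TAA experiment, which the series design calls livers, as is done here. The mice with tumours were injected at that age, and the labels do not state another age for their harvest. The labels do not name animals, and the spread behind each p-value is that between libraries and may be technical.

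MMPs are zinc proteases, mostly secreted as inactive precursors, that cut collagens, elastin and other proteins of the extracellular matrix, while the membrane-type MMPs work at the cell surface. ADAMTS proteases are secreted and cut proteoglycans, procollagens and von Willebrand factor. TIMPs bind and block the active enzymes, and in injured liver these proteases and inhibitors are known from stellate cells, macrophages, neutrophils and bile duct cells more than from hepatocytes.

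Total counts ran from 16228747 to 18522324 in hepatocyte and from 9640845 to 13692235 in liver libraries. Levels below are CPM, read counts per library scaled as RPM are but with TMM factors within each experiment, and 3 counts, taken as the floor of detection for counting error only, correspond to between 0.124 and 0.309 CPM. Each fold change is a log2 value ± SE, and a call is an adjusted p under 0.05 in the quasi-likelihood test of edgeR (Benjamini-Hochberg, over all genes tested). Marker lists of other cell types moved with the groups. Summed RPM of 10 stellate and fibroblast markers was 1366, 2493 and 731 in peritumoral and 95.8, 121 and 49.6 in untreated hepatocytes, and 511 and 465 at 24 h, 1565 and 2208 at 48 h and 136 and 84.4 in control livers. For 9 macrophage markers the sums ran from 1573 to 4364 in peritumoral and 239.8 to 418 in untreated hepatocytes, and from 403 to 531 at 24 h, 955 to 1555 at 48 h and 66.8 to 147 in controls. The 10 neutrophil markers summed to 24 to 50.7 RPM in peritumoral and 3.39 to 6.65 in untreated hepatocytes, and to 6.06 to 9.1 at 24 h, 7.97 to 10.9 at 48 h and 0.15 to 0.39 in controls, where 9 of them, all but Csf3r, were at 0. Hepatocyte markers were abundant throughout, at 75499 to 138116 RPM in peritumoral and 89684 to 91549 in untreated hepatocytes, and 123929 to 139080.0 at 24 h, 115278 to 119427 at 48 h and 172693 to 176255 in controls. One library stood apart. In peritumoral replicate 2 the 7 biliary markers summed to 10276 RPM, against 1112 and 775 in the other peritumoral libraries and 50.6 to 73.6 in untreated ones, and for calls and levels that it moved the value without it is given beside the full one. The part of other cells in the results below was not tested, and in these bulk libraries fewer cells of a type and less RNA per cell cannot be told apart.

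In peritumoral hepatocytes transcripts of the family were mostly higher than in untreated hepatocytes. Of 44 members, 30 passed the count filter of this comparison. Of these 19 rose, 1 fell (Mmp15) and 10 did not pass, where 19.0% of all tested genes rose and 10.2% fell. The median log2 fold change was 3.15 over the tested members and -0.02 over all 13442 tested genes. Peritumoral replicate 2 had the highest value of all peritumoral libraries for 16 of the 19 members that rose. Without it 18 members rose, and the count lay between 14 (without untreated replicate 1) and 21 (without peritumoral replicate 1) when 1 library was left out.

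In TAA livers the family was also mostly higher than in controls. At 24 h, 18 of 30 tested members rose, 1 fell (Adamts7) and 11 did not pass, where 21.3% of 13497 tested genes rose and 20.5% fell, and the median was 1.66 over members and 0.02 over all genes. At 48 h, 25 of 30 rose, 2 fell (Adamts7 and Mmp15) and 3 did not pass, where 25.0% rose and 23.9% fell, and the medians were 2.57 and -0.03. Both times are set against the same 2 control libraries. In each call of these 3 comparisons the treated libraries all lay on one side of their comparison. That also held for members that were not called, such as Mmp19 in all 3, and the share over all genes was not computed. The separation therefore adds no support to a call. The 24 h count fell to 11 without TAA 24 h replicate 2 and to 10 without control replicate 2, while the 48 h count lay between 18 and 25. Scaling by library totals alone, without TMM factors, shifts the median of all genes to 0.23 in the peritumoral, 0.53 in the 24 h and 0.68 in the 48 h comparison, and changes below are relative to the TMM median near 0.

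**Figure D1:**
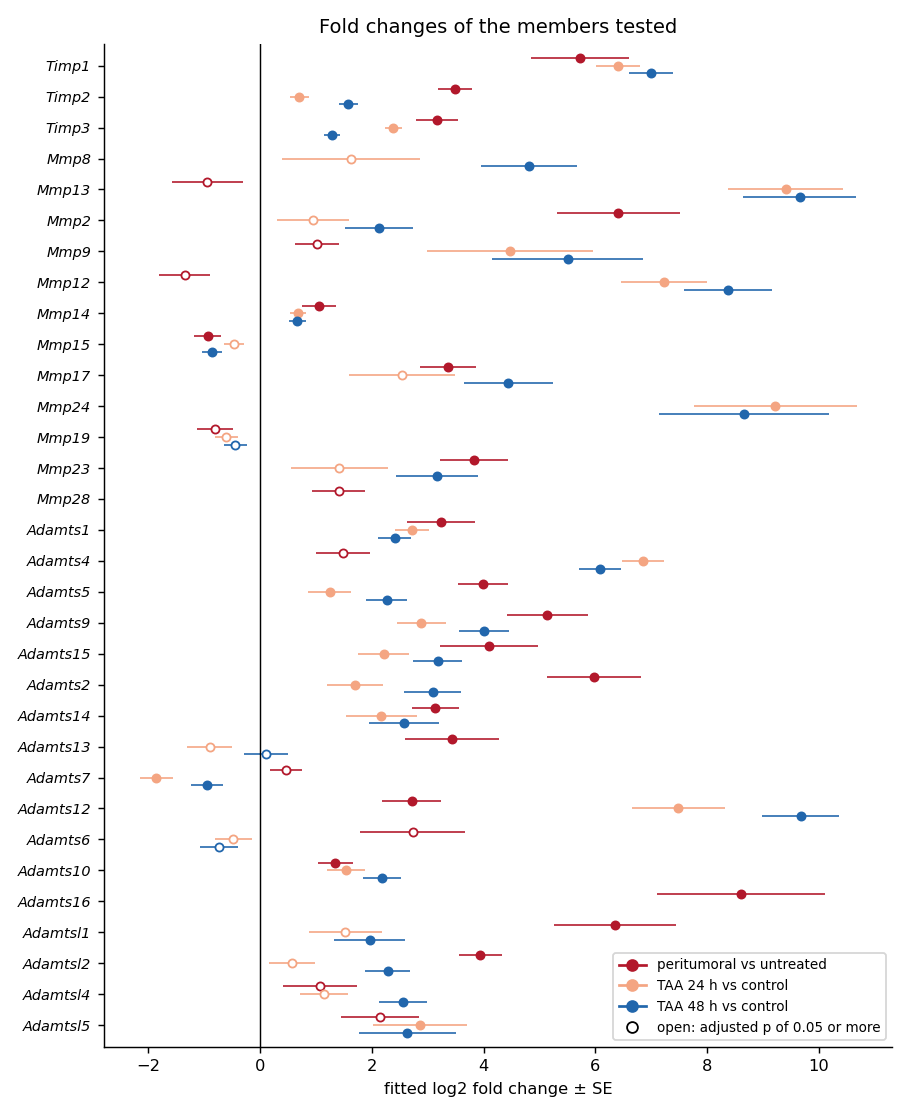
Log2 fold change ± SE (horizontal axis) of the 32 members tested in at least 1 experiment, in the peritumoral, 24 h TAA and 48 h TAA comparisons; filled points passed an adjusted p under 0.05. Most points lie right of 0, Mmp12, Mmp13 and Mmp24 lie far right in TAA livers, and Mmp15 and Adamts7 lie left of 0 where they were called.

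Timp1, Timp2 and Timp3 rose in both experiments, and Timp4 was too low to be tested. Timp1, the inhibitor classically induced in injured and fibrotic liver, lies on chromosome X, positions 20870166 to 20874735, plus strand (ENSMUSG00000001131, GRCm38). It had 26.6, 43.1 and 6.18 CPM in peritumoral hepatocytes, against 0.809, 0.407 and 0.157 CPM in untreated hepatocytes. In livers it had 11.2 and 7.77 CPM at 24 h and 12.4 and 16.1 CPM at 48 h after TAA, against 0.103 and 0.1 CPM in controls. No treated library reached down to its comparison, and control livers held 1 count each. The log2 fold change was 5.72 ± 0.88 (edgeR adjusted p = 0.00653) in peritumoral hepatocytes, 6.41 ± 0.40 (edgeR adjusted p = 0.000271) at 24 h and 7.00 ± 0.39 (edgeR adjusted p = 0.000113) at 48 h. As ratios of pooled CPM against 2 control counts, the TAA values were 93 (exact 95% interval 25.5 to 772) and 142 (exact 95% interval 39 to 1175), for counting error only. The peritumoral value was 5.11 without peritumoral replicate 2 and 6.40 without untreated replicate 1.

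Timp2, which blocks MMPs and also helps Mmp14 to activate the Mmp2 precursor, lies on chromosome 11, positions 118301069 to 118355740, minus strand. It had 85.7, 125 and 70.5 CPM in peritumoral hepatocytes, against 6.64, 10.9 and 7.47 CPM in untreated hepatocytes, and 15.4 and 14.7 CPM at 24 h and 24.7 and 30.6 CPM at 48 h, against 9.38 and 9.12 CPM in controls. All peritumoral libraries lay far above the untreated ones, with a log2 fold change of 3.49 ± 0.30 (edgeR adjusted p = 0.00267). The TAA changes were smaller, at 0.70 ± 0.16 (edgeR adjusted p = 0.0152) and 1.58 ± 0.16 (edgeR adjusted p = 0.00063). At 24 h the call was lost without either 24 h library or control replicate 2 (edgeR adjusted p = 0.0541 to 0.0793).

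Timp3, a matrix-bound inhibitor that also blocks ADAM17 and the proteoglycan-cutting ADAMTS enzymes, lies on chromosome 10, positions 86300372 to 86349506, plus strand, inside Syn3 on the opposite strand, with which it shares 21.3% of its exon length. It had 73.1, 175 and 110.4 CPM in peritumoral hepatocytes, against 13, 16.7 and 10.1 CPM in untreated hepatocytes, and 55.2 and 54.2 CPM at 24 h and 23 and 28 CPM at 48 h, against 10.9 and 10.02 CPM in controls. The groups did not overlap in any of these comparisons. The fold changes were 3.17 ± 0.37 (edgeR adjusted p = 0.00368), 2.38 ± 0.15 (edgeR adjusted p = 0.000369) and 1.28 ± 0.15 (edgeR adjusted p = 0.000889). Timp1 and Timp4 lie likewise within Syn1 and Syn2 on the opposite strand. Timp4 did not pass the count filter, and its 1.03, 11 and 0.0578 CPM in peritumoral hepatocytes, against 0, 0 and 0.0787 CPM in untreated hepatocytes, came almost wholly from peritumoral replicate 2. It was at 0 in all 6 livers.

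**Figure D2:**
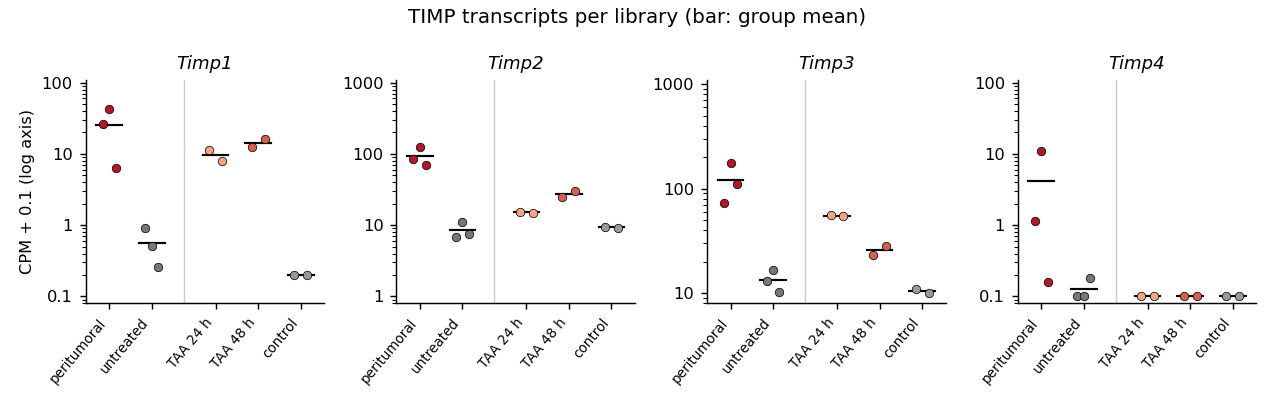
CPM + 0.1 on a log axis for the 4 TIMP genes in every library (points) by group, with the group mean as a bar; peritumoral and untreated hepatocytes stand left of the line and TAA 24 h, TAA 48 h and control livers right of it. Timp1, Timp2 and Timp3 lie above their comparison in every treated library, and Timp3 is higher at 24 h than at 48 h while Timp2 is higher at 48 h.

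Among the proteases, the gelatinase Mmp2, which cuts denatured and basement membrane collagen, rose in peritumoral hepatocytes and at 48 h after TAA. It had 25.4, 129 and 9.88 CPM in peritumoral hepatocytes, against 0.462, 0.814 and 0.629 CPM in untreated hepatocytes. In livers it had 1.98 and 2.55 CPM at 24 h and 2.64 and 7.6 CPM at 48 h, against 1.65 and 0.702 CPM in controls. Every peritumoral library exceeded every untreated one, with replicate 2 highest. The peritumoral log2 fold change was 6.41 ± 1.09 (edgeR adjusted p = 0.00875), and 4.81 without replicate 2. At 48 h it was 2.13 ± 0.61 (edgeR adjusted p = 0.0272). That call was lost without 48 h replicate 2, where the value was 1.17, without control replicate 2 or without either 24 h library (edgeR adjusted p = 0.0503 to 0.16), and the value was 2.83 without control replicate 1. At 24 h Mmp2 did not pass, at 0.95 ± 0.64 (edgeR adjusted p = 0.269).

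Mmp9, the gelatinase stored in neutrophil granules, had 1.21, 2.2 and 2.6 CPM in peritumoral and 0.924, 1.16 and 0.865 CPM in untreated hepatocytes, 1.18 and 1.51 CPM at 24 h, 0.66 and 4.74 CPM at 48 h and 0.103 and 0 CPM in controls. The peritumoral libraries lay just above the untreated ones and the difference did not pass, at 1.02 ± 0.40 (edgeR adjusted p = 0.0984). Against 1 control count, the TAA ratios were 26.6 (exact 95% interval 4.49 to 1076) at 24 h and 57.3 (exact 95% interval 9.99 to 2291) at 48 h, and both were called, at 4.48 ± 1.48 (edgeR adjusted p = 0.0403) and 5.51 ± 1.36 (edgeR adjusted p = 0.0105). The 24 h call was lost without any 1 of the 24 h or control libraries (edgeR adjusted p = 0.0926 to 0.241), with 3.58 without control replicate 2, and under the older quasi-dispersion estimate (edgeR adjusted p = 0.0559). The 48 h call was lost without 48 h replicate 2 or without either control (edgeR adjusted p = 0.0615 to 0.106), and the value was 3.45 without 48 h replicate 2, 6.29 without 48 h replicate 1 and 4.59 without control replicate 2. Without control replicate 1 the remaining control had 0 counts, so no fold is given.

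The membrane-type MMPs did not move as one. Mmp14, the surface collagenase that activates Mmp2, had 79.6, 155 and 86.2 CPM in peritumoral and 62.8, 51.7 and 39.5 CPM in untreated hepatocytes, 86 and 93.3 CPM at 24 h, 80.7 and 97.5 CPM at 48 h and 61.2 and 51.1 CPM in controls. It rose by 1.06 ± 0.31 (edgeR adjusted p = 0.042), 0.68 ± 0.15 (edgeR adjusted p = 0.0125) and 0.67 ± 0.15 (edgeR adjusted p = 0.0104), without overlap between groups. These calls were fragile. The peritumoral one was lost without any 1 library other than peritumoral replicate 1 (edgeR adjusted p = 0.0606 to 0.125) and under library totals alone (edgeR adjusted p = 0.0618). The TAA ones were lost without 24 h replicate 2 at 24 h, 48 h replicate 2 at 48 h, or control replicate 2 at both times (edgeR adjusted p = 0.0556 to 0.0655 and 0.0588 to 0.0713).

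Mmp15 was the only MMP called lower in any of the 4 comparisons. It had 46.7, 44.4 and 29.7 CPM in peritumoral and 64.3, 70.1 and 96.7 CPM in untreated hepatocytes, 27.6 and 31.1 CPM at 24 h, 26 and 18.7 CPM at 48 h and 40.9 and 40.0 CPM in controls, with no overlap between treated libraries and their comparison. Relative to the other genes it fell by 0.94 ± 0.24 in peritumoral hepatocytes (edgeR adjusted p = 0.0297) and by 0.86 ± 0.18 at 48 h (edgeR adjusted p = 0.00823), and both calls were lost when library totals alone set the scale, at -0.65 and -0.14 (edgeR adjusted p = 0.148 and 0.538). The peritumoral call was also lost without peritumoral replicate 3 or any 1 untreated library (edgeR adjusted p = 0.0622 to 0.0742). At 24 h Mmp15 did not pass, at -0.46 ± 0.18 (edgeR adjusted p = 0.0773), and its direction turned under library totals alone, at 0.05.

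Mmp17, a lipid-anchored member, had 2.54, 1.7 and 1.73 CPM in peritumoral and 0.173, 0.291 and 0.0787 CPM in untreated hepatocytes, 0.735 and 0.55 CPM at 24 h, 2.23 and 2.6 CPM at 48 h and 0.206 and 0 CPM in controls. It rose by 3.36 ± 0.50 (edgeR adjusted p = 0.00578) in peritumoral hepatocytes and by 4.44 ± 0.80 (edgeR adjusted p = 0.00322) at 48 h, where the ratio against 2 control counts was 23.9 (exact 95% interval 6.37 to 202). The 48 h value was 3.45 without control replicate 2, and without control replicate 1 the remaining control had 0 counts. Mmp24, a membrane-type enzyme known mainly from brain, was at 0 in both controls and had 3.75 and 8.19 CPM at 24 h and 2.06 and 5.94 CPM at 48 h. Pooled CPM was at least 39.6-fold higher at 24 h and at least 27.6-fold higher at 48 h, against a floor of 3 counts over both controls (edgeR adjusted p = 0.00567 and 0.00612). Both calls held without any 1 library. The bound was 24.6-fold at 24 h without 24 h replicate 2 and 13.5-fold at 48 h without 48 h replicate 2, and with 1 control left out, where the floor of 3 counts applies to the other, it was at least 19.5-fold at 24 h and 13.6-fold at 48 h. In hepatocytes it had 0.0606, 0.29 and 0.289 CPM in peritumoral and 4.79, 2.44 and 0 CPM in untreated libraries, so the untreated libraries themselves ran from 0 up to 4.79 CPM. It did not pass the count filter there. An antisense gene, BC029722, shares 13.6% of its exon length, and whether counting used strand is not stated in those sources. Mmp16 reached at most 0.415 CPM in any library.

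**Figure D3:**
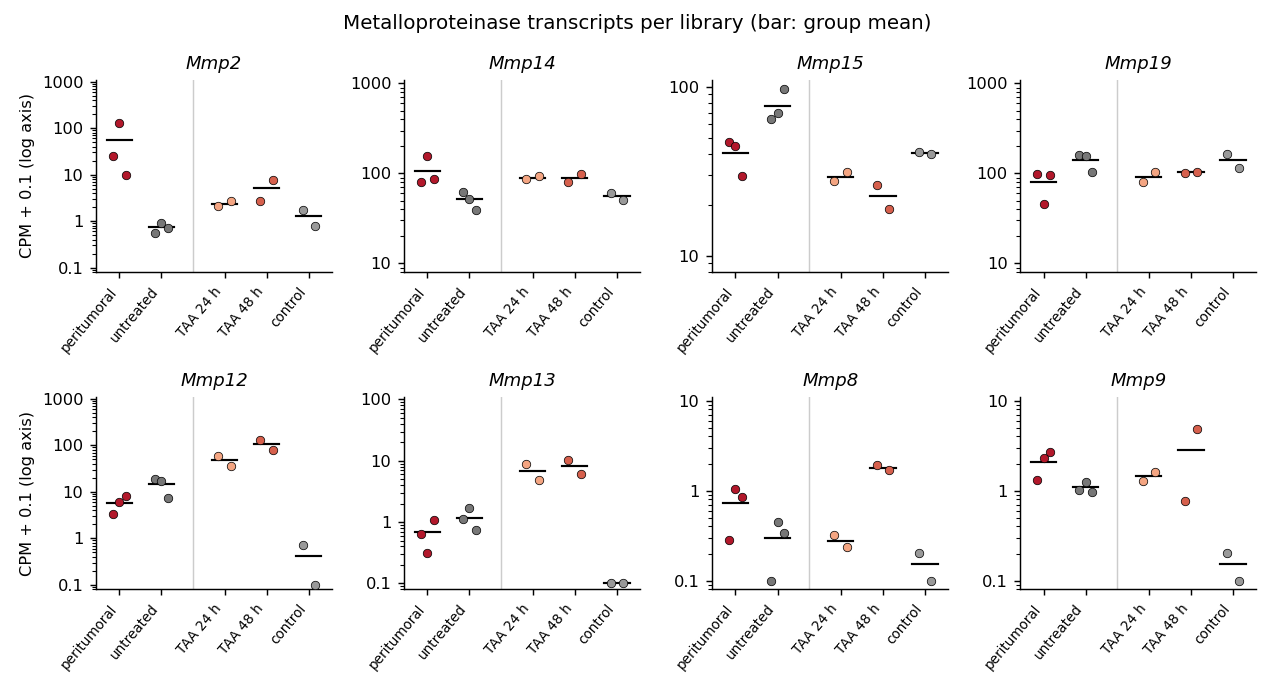
CPM + 0.1 on a log axis for 8 MMP genes in every library (points), with group means as bars, peritumoral and untreated hepatocytes left and TAA 24 h, TAA 48 h and control livers right of the line. Mmp2 is high in peritumoral hepatocytes, Mmp12 and Mmp13 are high in TAA livers and at or near 0 in controls, and Mmp15 lies below its comparison in treated libraries.

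Of the collagenases and the macrophage elastase, Mmp13 and Mmp12 differed between the experiments. For Mmp8 the difference of the 2 effects did not pass (edgeR adjusted p = 0.203). These genes are among 6 members that lie together on mouse chromosome 9 between positions 7272514 and 7699585 (GRCm38, all on the plus strand): Mmp13, Mmp12, Mmp3, Mmp8, Mmp27 and Mmp7. Promoters of 29 of the 44 members were matched in RefSeq tables (GRCm38.p6), with 32 start sites. In the 250 bases before each start, the AP-1 motif TGANTCA, which reads the same on both strands, occurred in 4 of 32 member promoters (12.5%), against 6.75% of 32851 promoters. All 4 belong to genes of this cluster, at -35 from the start in Mmp13, -44 from the second of 2 starts in Mmp12, -46 in Mmp3 and -63 from the first of 2 starts in Mmp7. The other start of Mmp12 and that of Mmp7 have no match. They are shown with Mmp8, which has none, and Mmp27 has none either and is not shown. Mmp3 and Mmp7 carry the motif but passed the count filter in neither experiment. A link between motif and level was not tested. Capitals mark the motif, and each line gives the 100 bases before the start, 5′ to 3′.
Mmp13 (chr9:7272414-7272513, plus strand): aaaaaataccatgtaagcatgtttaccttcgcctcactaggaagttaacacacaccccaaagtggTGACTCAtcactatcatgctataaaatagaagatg
Mmp12 (chr9:7347274-7347373, plus strand): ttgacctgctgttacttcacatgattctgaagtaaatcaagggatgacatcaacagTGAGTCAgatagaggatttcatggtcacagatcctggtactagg
Mmp3 (chr9:7445722-7445821, plus strand): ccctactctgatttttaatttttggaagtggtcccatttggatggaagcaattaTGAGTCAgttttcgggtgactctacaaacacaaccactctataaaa
Mmp7 (chr9:7691990-7692089, plus strand): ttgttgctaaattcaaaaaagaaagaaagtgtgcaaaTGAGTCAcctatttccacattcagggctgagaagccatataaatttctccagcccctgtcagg
Mmp8 (chr9:7558329-7558428, plus strand): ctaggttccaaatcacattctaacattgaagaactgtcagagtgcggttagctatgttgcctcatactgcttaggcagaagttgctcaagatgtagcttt
A match describes these letters and shows no binding. The TEAD motif GGAATG, searched on both strands, occurred in 2 member promoters (6.25%, Adamts13 and Timp1), against 12.6% of all, and the STAT motif TTCNNNGAA in 1 (3.12%, Mmp23), against 7.02% of all. Neither overlaps an AP-1 match, as none is in the promoters listed above.

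Mmp13, the main interstitial collagenase of the mouse, had 8.89 and 4.68 CPM at 24 h and 10.2 and 6 CPM at 48 h, against 0 in both controls. It was at least 44-fold higher at 24 h and at least 51.7-fold higher at 48 h, with the floor taken over both controls (edgeR adjusted p = 0.00181 and 0.00108), and at least 21.7-fold and 25.5-fold with the floor taken over control replicate 1 alone. In peritumoral hepatocytes it had 0.545, 0.207 and 0.983 CPM, against 1.04, 1.57 and 0.629 CPM in untreated hepatocytes, with overlapping groups and no call, at -0.95 ± 0.63 (edgeR adjusted p = 0.302).

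Mmp12, the elastase of macrophages, had 59.1 and 36 CPM at 24 h and 131 and 78.7 CPM at 48 h, against 0.619 and 0 CPM in controls. It rose by 7.23 ± 0.77 (edgeR adjusted p = 0.000998) and 8.38 ± 0.78 (edgeR adjusted p = 0.000457). Without control replicate 1 the remaining control had 0 counts, and without control replicate 2 the values were 6.23 and 7.34. In hepatocytes it was present in every library, with 3.27, 6.01 and 7.92 CPM in peritumoral and 19.2, 17.4 and 7.32 CPM in untreated libraries. The peritumoral value of replicate 3 reached into the untreated range and the difference did not pass, at -1.35 ± 0.46 (edgeR adjusted p = 0.0665), though DESeq2 called it lower at -1.34 (adjusted p = 0.0279). Summed RPM of the macrophage markers was above the comparison in every peritumoral and every TAA library, and the part of macrophages in the level of Mmp12 was not tested.

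Mmp8, the collagenase of neutrophils, had 0.22 and 0.138 CPM at 24 h, 1.81 and 1.6 CPM at 48 h and 0.103 and 0 CPM in controls, and was called at 48 h, at 4.81 ± 0.86 (edgeR adjusted p = 0.00247). The ratio against 1 control count was 33.4 (exact 95% interval 5.7 to 1346). Without control replicate 2 the value was 3.88, and without control replicate 1 the remaining control had 0 counts. Summed neutrophil markers were above the comparison in every TAA library, and their part in Mmp8 and Mmp9 was not tested. In hepatocytes Mmp8 did not pass the count filter, at 0.182, 0.954 and 0.751 CPM in peritumoral and 0, 0.349 and 0.236 CPM in untreated libraries. The 3 other genes of the cluster passed it in neither experiment, and Mmp3 and Mmp27 reached at most 0.481 and 0.495 CPM in any library. Mmp7, matrilysin of ductal epithelium, had 0.364, 11.4 and 0.751 CPM in peritumoral and 0.0578, 0.174 and 0.0787 CPM in untreated hepatocytes. Its high value belongs to replicate 2, where biliary, mesothelial and stellate marker sums were the highest of the peritumoral libraries. The part of these cells in Mmp7 was not tested. In TAA livers Mmp7 had 0.367 and 0.206 CPM at 24 h and 0.0824 and 1.2 CPM at 48 h, against 0 in both controls.

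Among the remaining MMPs, Mmp19 had the highest level per length of all MMPs in 11 of 12 libraries, with Mmp2 ahead of it in peritumoral replicate 2. It had 97.9, 45.7 and 96.1 CPM in peritumoral and 159, 155 and 105 CPM in untreated hepatocytes, 80.5 and 103 CPM at 24 h, 101 and 105 CPM at 48 h and 166 and 114 CPM in controls. Every treated library lay below every library of its comparison, but no difference passed, at -0.80 ± 0.33 (edgeR adjusted p = 0.109), -0.61 ± 0.21 (edgeR adjusted p = 0.0526) and -0.44 ± 0.20 (edgeR adjusted p = 0.117). Without control replicate 2 both TAA differences were called, at -0.87 and -0.74 (edgeR adjusted p = 0.0166 and 0.0213), and the 24 h one also with DESeq2, at -0.59 (DESeq2 adjusted p = 0.039). Under library totals alone the 48 h value turned to 0.27. Tmem198b and Gm47093 share 28.3% of its exon length. Mmp23, which is anchored in the membrane by its amino end, had 4.3, 9.62 and 2.72 CPM in peritumoral and 0.231, 0.465 and 0.472 CPM in untreated hepatocytes, 0.22 and 0.619 CPM at 24 h, 1.07 and 1.8 CPM at 48 h and 0.103 and 0.2 CPM in controls. It rose by 3.83 ± 0.61 (edgeR adjusted p = 0.00718) in peritumoral hepatocytes, by 3.21 without replicate 2, and by 3.17 ± 0.74 (edgeR adjusted p = 0.0108) at 48 h. The 48 h ratio against 3 control counts was 9.67 (exact 95% interval 3.08 to 48.9), and the call was lost without 48 h replicate 2 or either control (edgeR adjusted p = 0.0527 to 0.0726). Mmp28, epilysin, was tested in hepatocytes only, where 1.27, 2.82 and 1.97 CPM in peritumoral and 0.462, 0.756 and 1.1 CPM in untreated libraries gave no call, at 1.41 ± 0.47 (edgeR adjusted p = 0.0659). Mmp11 passed the filter in neither experiment and reached 3.4 CPM in peritumoral replicate 2.

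The ADAMTS enzymes that cut proteoglycans such as versican and aggrecan were mostly called higher. Adamts1, Adamts5, Adamts9 and Adamts15 were called higher in peritumoral hepatocytes, and these 4 with Adamts4 at 24 h and at 48 h. Adamts8 and Adamts20, of the same class, reached at most 0.275 and 0.788 CPM in any library.

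Adamts1, on chromosome 16, positions 85793827 to 85803113, minus strand, had 129.6, 506 and 237 CPM in peritumoral hepatocytes, against 40.4, 37.2 and 14.6 CPM in untreated hepatocytes, and 69.5 and 68.1 CPM at 24 h and 42 and 69.4 CPM at 48 h, against 8.15 and 12.8 CPM in controls. The groups were well apart. It rose by 3.24 ± 0.61 (edgeR adjusted p = 0.0114), by 2.60 without peritumoral replicate 2, and by 2.71 ± 0.30 (edgeR adjusted p = 0.00116) and 2.41 ± 0.30 (edgeR adjusted p = 0.00113) after TAA. Its neighbour Adamts5, on the same chromosome and strand from 85856173 to 85901828, was far lower, with 6.18, 10.6 and 5.14 CPM in peritumoral and 0.289, 0.465 and 0.629 CPM in untreated hepatocytes, 2.06 and 1.58 CPM at 24 h, 3.3 and 4.07 CPM at 48 h and 0.619 and 0.902 CPM in controls. It rose by 4.00 ± 0.45 (edgeR adjusted p = 0.00351), 1.24 ± 0.38 (edgeR adjusted p = 0.0383) and 2.26 ± 0.36 (edgeR adjusted p = 0.00295). Its 24 h call was lost without any 1 of the 6 liver libraries (edgeR adjusted p = 0.0634 to 0.171) and with DESeq2 (adjusted p = 0.0998).

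Adamts4, called aggrecanase for its main substrate, rose in TAA livers. It had 20.1 and 17.3 CPM at 24 h and 9.07 and 12.9 CPM at 48 h, against 0.206 and 0.1 CPM in controls. It rose by 6.85 ± 0.38 (edgeR adjusted p = 0.000271) and 6.08 ± 0.38 (edgeR adjusted p = 0.000169), and the ratios against 3 control counts were 122 (exact 95% interval 41.7 to 596) and 73.5 (exact 95% interval 24.9 to 358). In hepatocytes 6.06, 4.48 and 5.9 CPM in peritumoral libraries, against 2.14, 2.97 and 0.708 CPM in untreated ones, did not pass, at 1.48 ± 0.48 (edgeR adjusted p = 0.0601), although the groups did not overlap and DESeq2 called it (adjusted p = 0.0231).

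Adamts9 had 38, 98.3 and 15.5 CPM in peritumoral and 1.27, 1.74 and 1.26 CPM in untreated hepatocytes, 9.26 and 8.94 CPM at 24 h, 14.5 and 25.2 CPM at 48 h and 1.75 and 0.702 CPM in controls. It rose by 5.14 ± 0.72 (edgeR adjusted p = 0.00528), 2.88 ± 0.44 (edgeR adjusted p = 0.00337) and 4.01 ± 0.45 (edgeR adjusted p = 0.000774). The peritumoral value was 4.26 without peritumoral replicate 2, and the TAA values were 3.67 and 4.77 without control replicate 1. Adamts15 had 5.51, 14.8 and 3.01 CPM in peritumoral and 0.289, 0.93 and 0.0787 CPM in untreated hepatocytes, 1.91 and 1.93 CPM at 24 h, 2.8 and 4.67 CPM at 48 h and 0.413 and 0.401 CPM in controls. It rose by 4.10 ± 0.88 (edgeR adjusted p = 0.0174), 2.21 ± 0.45 (edgeR adjusted p = 0.00995) and 3.18 ± 0.43 (edgeR adjusted p = 0.00157). Its peritumoral value was 3.24 without peritumoral replicate 2 and 5.26 without untreated replicate 2, and that call was lost without untreated replicate 1 (edgeR adjusted p = 0.0772). The 24 h call was lost without either control (edgeR adjusted p = 0.0539 to 0.0555).

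**Figure D4:**
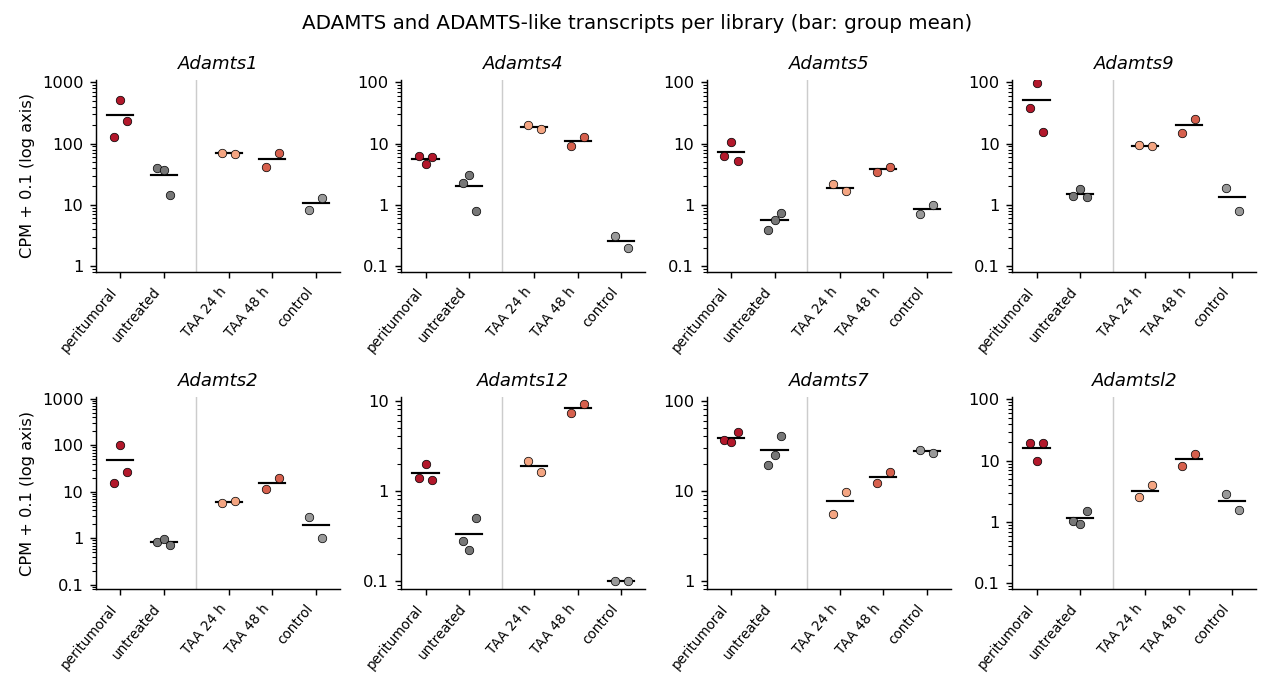
CPM + 0.1 on a log axis for 8 ADAMTS and ADAMTS-like genes in every library (points), with group means as bars, peritumoral and untreated hepatocytes left and TAA 24 h, TAA 48 h and control livers right of the line. Peritumoral and TAA libraries lie above their comparison except for Adamts7, which is lower in TAA livers and overlaps in hepatocytes, and for Adamtsl2 at 24 h, which overlaps the controls.

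Adamts2 and Adamts14, which trim the amino end of fibrillar procollagens, rose in both experiments. Adamts2 had 15.1, 103 and 26.5 CPM in peritumoral and 0.751, 0.872 and 0.629 CPM in untreated hepatocytes, 5.66 and 6.33 CPM at 24 h, 11.3 and 20.1 CPM at 48 h and 2.78 and 0.902 CPM in controls. It rose by 5.98 ± 0.84 (edgeR adjusted p = 0.00528), by 4.81 without peritumoral replicate 2, and by 1.70 ± 0.50 (edgeR adjusted p = 0.0348) and 3.09 ± 0.51 (edgeR adjusted p = 0.00315) after TAA. The 24 h call was lost without either 24 h library or control replicate 2 (edgeR adjusted p = 0.108 to 0.117), and the TAA values were 2.71 and 4.07 without control replicate 1 and 1.09 and 2.45 without control replicate 2. Adamts14 had 4.18, 4.48 and 3.01 CPM in peritumoral and 0.404, 0.64 and 0.236 CPM in untreated hepatocytes, 1.47 and 3.16 CPM at 24 h, 3.05 and 3.14 CPM at 48 h and 0.825 and 0.2 CPM in controls. It rose by 3.14 ± 0.42 (edgeR adjusted p = 0.00468), 2.17 ± 0.63 (edgeR adjusted p = 0.0332) and 2.58 ± 0.62 (edgeR adjusted p = 0.0141). The 24 h call was lost without 24 h replicate 2 (value 1.50), control replicate 2 (value 1.47) or either 48 h library (edgeR adjusted p = 0.0562 to 0.163). The 48 h call was lost without 48 h replicate 2 or control replicate 2 (edgeR adjusted p = 0.0507 to 0.0683), with a value of 1.85 without control replicate 2, and without control replicate 1 the TAA values were 3.47 and 3.84. Adamts3 passed the filter in neither experiment, at 2.57 CPM or less.

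Adamts13 cuts von Willebrand factor and is known in liver as a product of stellate cells. It had 11.9, 1.45 and 3.53 CPM in peritumoral and 0.635, 0.349 and 0.551 CPM in untreated hepatocytes, 3.97 and 1.86 CPM at 24 h, 6.93 and 4.8 CPM at 48 h and 6.19 and 4.71 CPM in controls. Peritumoral replicate 1 was highest. It rose by 3.44 ± 0.84 (edgeR adjusted p = 0.0259) in peritumoral hepatocytes, by 2.25 without that library, and the call was lost without any 1 untreated library (edgeR adjusted p = 0.0721 to 0.0963). After TAA it did not pass, at -0.91 ± 0.40 (edgeR adjusted p = 0.114) and 0.10 ± 0.39 (edgeR adjusted p = 0.847). It lay below the controls at 24 h and overlapped them at 48 h.

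Adamts7 and Adamts12 cut cartilage oligomeric matrix protein and differed in direction after TAA. Adamts7 had 5.36 and 9.63 CPM at 24 h, 12 and 16.1 CPM at 48 h and 28.4 and 26.2 CPM in controls, without overlap. Relative to the other genes it fell by 1.86 ± 0.30 at 24 h (edgeR adjusted p = 0.00398) and by 0.95 ± 0.29 at 48 h (edgeR adjusted p = 0.0322). The 48 h call was lost without either 48 h or either control library (edgeR adjusted p = 0.0555 to 0.16) and under library totals alone, at -0.25 (edgeR adjusted p = 0.454). In hepatocytes it had 36.1, 34.4 and 45.3 CPM in peritumoral and 19, 24.9 and 40.4 CPM in untreated libraries and did not pass, at 0.46 ± 0.29 (edgeR adjusted p = 0.276), but was called without untreated replicate 3, at 0.80 (edgeR adjusted p = 0.0479). Adamts12 was at 0 in both controls, with 2.06 and 1.51 CPM at 24 h and 7.17 and 9.14 CPM at 48 h. It was at least 11.7-fold higher at 24 h and at least 54.2-fold higher at 48 h, with the floor of 3 counts over both controls (edgeR adjusted p = 0.00191 and 0.000386), and at least 5.74-fold and 26.7-fold with the floor over control replicate 1 alone. In peritumoral hepatocytes it had 1.27, 1.87 and 1.21 CPM, against 0.173, 0.116 and 0.393 CPM in untreated hepatocytes, and rose by 2.71 ± 0.53 (edgeR adjusted p = 0.0128). That call was lost without untreated replicate 1 or 2 (edgeR adjusted p = 0.0644 to 0.0661).

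Of the other ADAMTS genes, Adamts10, which is tied to fibrillin microfibrils, had 13.6, 13.7 and 11.7 CPM in peritumoral and 4.68, 7.33 and 3.3 CPM in untreated hepatocytes, 4.48 and 4.4 CPM at 24 h, 5.28 and 8.61 CPM at 48 h and 1.75 and 1.3 CPM in controls. It rose by 1.35 ± 0.31 (edgeR adjusted p = 0.0221), 1.53 ± 0.34 (edgeR adjusted p = 0.0126) and 2.18 ± 0.34 (edgeR adjusted p = 0.00247). The peritumoral call was lost without untreated replicate 1 (edgeR adjusted p = 0.103) and the 24 h call without 24 h replicate 1 or control replicate 2 (edgeR adjusted p = 0.0611 to 0.0693). Adamts16 had 6.12, 72.5 and 3.87 CPM in peritumoral and 0.116, 0 and 0.0787 CPM in untreated hepatocytes, and replicate 2 held most of its counts. The ratio against 3 untreated counts was 521 (exact 95% interval 178 to 2529), and the fitted change of 8.61 ± 1.51 (edgeR adjusted p = 0.0058) was 6.17 without peritumoral replicate 2, 9.38 without untreated replicate 1 and 8.00 without untreated replicate 2. In livers it did not pass the count filter and stayed at or under 0.21 CPM. Adamts6 reached 22.1 CPM in peritumoral replicate 2 and was not called in those hepatocytes, at 2.73 ± 0.94 (edgeR adjusted p = 0.0694) and 1.12 without that library, while it was without peritumoral replicate 1, at 3.15 (edgeR adjusted p = 0.0483), and with DESeq2, at 2.73 (DESeq2 adjusted p = 0.00787). Adamts17 and Adamts19 reached at most 0.578 and 0.809 CPM.

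The ADAMTS-like genes encode matrix proteins that bind fibrillin and related partners. Adamtsl2, a neighbour of Adamts13 on chromosome 2, had 19.3, 9.83 and 19.3 CPM in peritumoral and 0.924, 0.814 and 1.42 CPM in untreated hepatocytes, 2.42 and 3.92 CPM at 24 h, 8.24 and 12.6 CPM at 48 h and 2.78 and 1.5 CPM in controls. It rose by 3.94 ± 0.39 (edgeR adjusted p = 0.003) in peritumoral hepatocytes and by 2.28 ± 0.41 (edgeR adjusted p = 0.00443) at 48 h, while the 24 h libraries overlapped the controls, at 0.57 ± 0.42 (edgeR adjusted p = 0.306). Adamtsl1 had 5.57, 33.8 and 3.76 CPM in peritumoral and 0.231, 0.116 and 0.157 CPM in untreated hepatocytes, 1.91 and 2.82 CPM at 24 h, 2.14 and 4.2 CPM at 48 h and 1.34 and 0.301 CPM in controls. It rose by 6.36 ± 1.09 (edgeR adjusted p = 0.00816) in peritumoral hepatocytes, by 4.76 without replicate 2, and by 1.96 ± 0.64 (edgeR adjusted p = 0.0416) at 48 h. The 48 h call was lost without 48 h replicate 2, control replicate 2 (value 1.21) or either 24 h library (edgeR adjusted p = 0.0688 to 0.202), and the value was 3.34 without control replicate 1.

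Adamtsl4, a fibrillin partner, rose at 48 h. It had 5.33, 16.3 and 5.61 CPM in peritumoral and 5.37, 6.22 and 1.34 CPM in untreated hepatocytes, 3.31 and 4.13 CPM at 24 h, 9.07 and 10.8 CPM at 48 h and 2.48 and 0.902 CPM in controls. The 48 h change was 2.56 ± 0.42 (edgeR adjusted p = 0.00332), with 3.41 without control replicate 1 and 1.96 without control replicate 2, and the peritumoral change of 1.07 ± 0.66 (edgeR adjusted p = 0.263) and the 24 h change of 1.14 ± 0.43 (edgeR adjusted p = 0.0734) did not pass. The peritumoral value was 0.35 without peritumoral replicate 2. At 24 h the change was called without control replicate 1, at 2.02 (edgeR adjusted p = 0.0155), and under library totals alone, at 1.65 (edgeR adjusted p = 0.0162). Adamtsl5 was a low gene, with 1.51, 3.44 and 1.27 CPM in peritumoral and 0.116, 0.814 and 0.472 CPM in untreated hepatocytes, 1.25 and 1.1 CPM at 24 h, 1.07 and 0.934 CPM at 48 h and 0 and 0.301 CPM in controls. Against 3 control counts the ratios were 7.69 (exact 95% interval 2.41 to 39.2) at 24 h and 6.53 (exact 95% interval 2.01 to 33.6) at 48 h. Both were called, at 2.87 ± 0.84 (edgeR adjusted p = 0.0314) and 2.64 ± 0.86 (edgeR adjusted p = 0.0392). The 24 h call was lost without either 24 h library, 48 h replicate 1 or control replicate 1 (edgeR adjusted p = 0.0543 to 0.121), and the 48 h call without any 1 liver library other than control replicate 2 (edgeR adjusted p = 0.0728 to 0.112). Without control replicate 1 the values were 1.92 and 1.66, and without control replicate 2 the remaining control had 0 counts. Adamtsl3 reached at most 0.289 CPM.

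The 2 times after TAA were also compared with each other. Of 30 tested members, 4 were higher at 48 h than at 24 h and 1 was lower, where 4.96% of all tested genes were higher and 2.36% lower. The median log2 difference was 0.89 over the tested members and 0.01 over all tested genes. The higher ones were Adamts12, at 2.19 ± 0.30 (edgeR adjusted p = 0.0235), Mmp8, at 3.19 ± 0.63 (edgeR adjusted p = 0.0276), Adamtsl2, at 1.71 ± 0.38 (edgeR adjusted p = 0.0474), and Timp2, at 0.88 ± 0.16 (edgeR adjusted p = 0.0312). The lower one was Timp3, which fell by 1.10 ± 0.14 (edgeR adjusted p = 0.0165). Timp1 did not pass, at 0.58 ± 0.23 (edgeR adjusted p = 0.15), nor did Mmp12, at 1.14 ± 0.51 (edgeR adjusted p = 0.202). No call of this comparison was firm with 2 libraries a group. Without any 1 of the TAA libraries no member was called higher (edgeR adjusted p = 0.0844 to 0.237), and the call on Timp3 was lost without any 1 of them other than 48 h replicate 2 (edgeR adjusted p = 0.103 to 0.111).

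The effects of the 2 experiments were compared in 1 fit of all 12 libraries, as the peritumoral minus the 48 h TAA fold change. Mouse stock differs between the experiments, preparation may too, and neither can be told apart from this difference. Of 36 tested members, 2 had a larger effect in peritumoral hepatocytes and 5 a smaller one, where 6.71% of 14615 tested genes were larger and 8.57% smaller. Larger effects thus made up 5.56% of the tested members, near the share over all genes. DESeq2 called more members larger, and its share over all genes was not computed. The 2 larger were Timp2, with a difference of 1.83 ± 0.37 (edgeR adjusted p = 0.0164), and Timp3, with 1.80 ± 0.46 (edgeR adjusted p = 0.031). The 5 smaller were Mmp12, Mmp13, Mmp24, Adamts4 and Adamts12. Whether inhibitors and proteases differ as classes was not tested. Mmp12 differed by -9.82 ± 1.08 (edgeR adjusted p = 0.00153) and Adamts4 by -4.71 ± 0.84 (edgeR adjusted p = 0.00991). Both sizes rest on few control counts, 6 and 0 for Mmp12 and 2 and 1 for Adamts4. Untreated hepatocytes started higher than control livers, at a mean of 14.6 against 0.309 CPM for Mmp12 and 1.94 against 0.153 CPM for Adamts4. The size of the difference therefore also reflects unlike baselines. For Mmp13, Mmp24 and Adamts12 the controls were at 0, so no size is given (edgeR adjusted p = 0.00741, 0.024 and 0.0131). Timp1, with the highest TAA fold change among TIMPs, did not pass, at -1.41 ± 1.46 (edgeR adjusted p = 0.533), nor did Mmp2, at 4.18 ± 1.45 (edgeR adjusted p = 0.0767). Without peritumoral replicate 2 these were -2.05 for Timp1 and 2.54 for Mmp2, and Adamts13, Adamts16 and Adamtsl2 were called larger (edgeR adjusted p = 0.0146, 0.0128 and 0.0294). With all libraries Adamts16 did not pass, at 8.61 ± 3.03 (edgeR adjusted p = 0.0656). It was called without any 1 peritumoral library, with DESeq2 (DESeq2 adjusted p = 0.000278) and with limma (limma adjusted p = 0.0486 and 0.0246). In 48 h and control livers Adamts16 held at most 3 counts a library. The Mmp2 difference was called without peritumoral replicate 3, at 4.68 (edgeR adjusted p = 0.0285), and with DESeq2, at 4.28 (DESeq2 adjusted p = 0.00644).

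The calls on Mmp12 and Mmp13 held in every fit that left out 1 library, and the Mmp12 difference was -8.78 without control replicate 2. The call on Timp2 was lost without 48 h replicate 1 or either control (edgeR adjusted p = 0.0539 to 0.0703), that on Timp3 without untreated replicate 1 or any 1 liver library (edgeR adjusted p = 0.051 to 0.113), and that on Adamts4 without either control (edgeR adjusted p = 0.0549 to 0.0615). Those on Adamts12 and Mmp24 were lost without any 1 of the 48 h or control libraries, and that on Mmp24 also without untreated replicate 1 or 2 (edgeR adjusted p = 0.0507 to 0.0812). Under library totals alone the differences of Timp2 and Timp3 did not pass, at 1.47 and 1.45 (edgeR adjusted p = 0.0723 and 0.117).

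**Figure D5:**
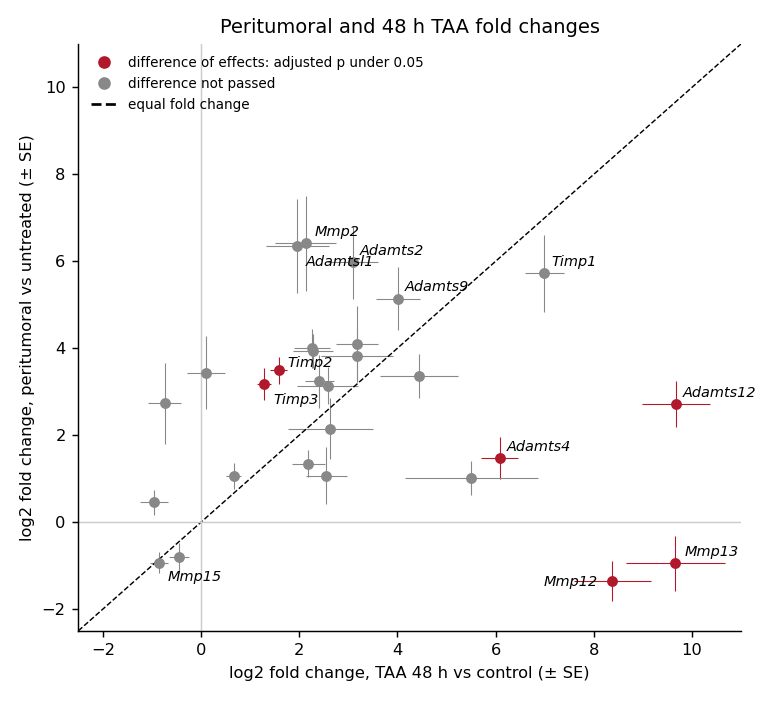
Log2 fold change ± SE of peritumoral against untreated hepatocytes (vertical) and of TAA 48 h against control livers (horizontal) for the 28 members tested in both fits; red points passed the test of the difference between the effects and the dashed line marks equal effects. Mmp12 and Mmp13 lie far right below 0, Adamts4 and Adamts12 right of the line, and Timp2 and Timp3 left of it.

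Levels of different genes were compared as CPM per kb of exon. The 4 TIMPs together stood at 67.9 ± 33.2 in peritumoral and 4.29 ± 0.983 in untreated hepatocytes (SD, n = 3 each), and at 21.3 ± 2.98 at 24 h, 26.2 ± 4.44 at 48 h and 3.78 ± 0.129 in controls (SD, n = 2 each). The 18 Adamts genes summed to 81.3 ± 50.7 in peritumoral and 12 ± 1.37 in untreated hepatocytes, and to 21.8 ± 0.142 at 24 h, 22.5 ± 6.25 at 48 h and 8.5 ± 0.112 in controls. The 5 Adamtsl genes summed to 5.78 ± 2.37 in peritumoral and 1.27 ± 0.597 in untreated hepatocytes, and to 1.72 ± 0.305 at 24 h, 4.15 ± 0.79 at 48 h and 0.767 ± 0.391 in controls. By contrast the 17 Mmp genes summed to 74 ± 26.8 in peritumoral and 66.6 ± 8.57 in untreated hepatocytes, and to 59.1 ± 3.39 at 24 h, 71.8 ± 1.09 at 48 h and 57.2 ± 12.1 in controls. These sums describe levels and were not tested, and those of the Mmp genes lay within their spread in hepatocytes. Without peritumoral replicate 2 the peritumoral sums were 49.9 ± 15.9 for TIMPs, 52.5 ± 13.1 for Adamts, 4.41 ± 0.0831 for Adamtsl and 58.6 ± 4.37 CPM per kb for Mmp genes (SD, n = 2).

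Within the TIMPs the leading gene changed. Timp2 led in all 3 untreated and both control libraries and in peritumoral replicate 3, and Timp1 in all 4 TAA and the other 2 peritumoral libraries, as CPM per kb. In TAA livers Timp1 held 45.6% to 61.6% of the TIMP sum, and in controls Timp2 held 62.3% and 63.5%. Timp1 stood at 28.5 ± 20.8 in peritumoral and 0.515 ± 0.37 in untreated hepatocytes, 10.7 ± 2.76 at 24 h, 16 ± 2.95 at 48 h and 0.115 ± 0.0023 CPM per kb in controls, and at 18.5 ± 16.3 in peritumoral hepatocytes without replicate 2. Its rank among the 44 members was 2 in peritumoral and 11 in untreated hepatocytes, 4 at 24 h, 2 at 48 h and 16 in controls. In peritumoral hepatocytes, however, the mean levels of Timp2, Timp3, Mmp19, Mmp14 and Mmp2 lie within the spread of Timp1. Mmp19 held 52.3% to 62.1% of the Mmp sum in untreated and 66.2% and 71.5% in control libraries, and 36.5% was the share of Mmp2 in peritumoral replicate 2, where it led. Mmp12 had rank 22 in peritumoral and 7 in untreated hepatocytes, 6 at 24 h, 4 at 48 h and 22 in controls. Among Adamts genes Adamts1 led in 9 libraries, and Adamts7 in both controls and in untreated replicate 3.

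Other genes of the pathway were read from 4 lists chosen by function. The choice was made with earlier results of these data known, so counts from these lists are descriptive and give no independent support. Among 24 activators and other inhibitors of these proteases, 10 rose and 1 fell of 24 tested in peritumoral hepatocytes, 9 rose and 6 fell of 23 at 24 h, and 9 rose and 7 fell of 23 at 48 h. Beside this list and those below, 19.0% of all tested genes rose and 10.2% fell in the peritumoral comparison. The shares were 21.3% and 20.5% at 24 h, and 25.0% and 23.9% at 48 h. Their median log2 fold change was 1.11 in the peritumoral, -0.29 in the 24 h and 0.65 in the 48 h comparison, beside medians near 0 over all genes. In peritumoral hepatocytes Serpine2, an inhibitor of thrombin and plasminogen activators, rose by 5.20 ± 0.41 (edgeR adjusted p = 0.00267), and Pcolce, an enhancer of procollagen processing, by 3.40 ± 0.28 (edgeR adjusted p = 0.00267). At 24 h Plau, urokinase, rose by 4.99 ± 0.36 (edgeR adjusted p = 0.000485). At 48 h Plau rose by 5.87 ± 0.36 (edgeR adjusted p = 0.000197) and Plat, the tissue plasminogen activator, by 6.82 ± 0.64 (edgeR adjusted p = 0.000459).

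Of 12 ADAM and ADAM-like genes, relatives of which some shed surface proteins, 6 of 10 tested rose in peritumoral hepatocytes, 6 of 10 at 24 h and 7 of 10 at 48 h, and none fell. The medians were 2.18 in the peritumoral, 1.27 in the 24 h and 2.13 in the 48 h comparison. Adam23, a member without protease activity, rose by 2.05 ± 0.22 (edgeR adjusted p = 0.0033) and Adamdec1, a gene of gut macrophages, by 4.41 ± 0.56 (edgeR adjusted p = 0.00426) in peritumoral hepatocytes. Adam8, a leukocyte protease, rose by 4.57 ± 0.45 (edgeR adjusted p = 0.000868) at 24 h and by 6.37 ± 0.46 (edgeR adjusted p = 0.00027) at 48 h, and Adam15 by 2.36 ± 0.26 (edgeR adjusted p = 0.00111) and 3.53 ± 0.26 (edgeR adjusted p = 0.000291).

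Of 22 matrix proteins that these enzymes cut or process, 14 of 18 tested rose and none fell in peritumoral hepatocytes, 15 rose and 1 fell at 24 h, and 16 rose and 1 fell at 48 h. The medians were 3.52 in the peritumoral, 2.43 in the 24 h and 3.27 in the 48 h comparison. This list shares collagens, Dcn and Lum with the stellate markers. The proteoglycans Bgn and Dcn rose by 3.66 ± 0.25 (edgeR adjusted p = 0.0023) and 3.25 ± 0.27 (edgeR adjusted p = 0.00267) in peritumoral hepatocytes, the basement membrane genes Nid1 and Col4a1 by 4.73 ± 0.21 (edgeR adjusted p = 0.000211) and 3.10 ± 0.25 (edgeR adjusted p = 0.000602) at 24 h, and Nid1 and the fibrillar collagen gene Col1a2 by 4.08 ± 0.20 (edgeR adjusted p = 0.000125) and 5.25 ± 0.26 (edgeR adjusted p = 0.000135) at 48 h. Of 13 known inducers of MMP and TIMP genes, cytokines and transcription factors, 10 of 12 tested rose in peritumoral hepatocytes and 10 of 13 at each TAA time, and none fell. The medians were 1.85 in the peritumoral, 3.87 in the 24 h and 2.97 in the 48 h comparison. Tgfb1 rose by 2.74 ± 0.31 (edgeR adjusted p = 0.00351) and Junb, an AP-1 subunit, by 1.71 ± 0.20 (edgeR adjusted p = 0.00352) in peritumoral hepatocytes. Il1b rose by 3.87 ± 0.29 (edgeR adjusted p = 0.000502) and Tnf by 4.88 ± 0.38 (edgeR adjusted p = 0.000575) at 24 h, and Tnf by 4.89 ± 0.38 (edgeR adjusted p = 0.00032) and the transcription factor gene Ets1 by 2.24 ± 0.18 (edgeR adjusted p = 0.00033) at 48 h.

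Of the marker lists, 8 of 10 stellate and fibroblast, 8 of 9 macrophage, 9 of 9 tested neutrophil, 8 of 8 endothelial, 5 of 7 biliary and 4 of 4 mesothelial markers rose in peritumoral hepatocytes beside the 19 members, and 1 of 8 hepatocyte markers fell. At 24 h, 9 of 10 stellate and fibroblast, 5 of 9 macrophage, 3 of 3 tested neutrophil, 5 of 8 endothelial, 4 of 6 tested biliary and 0 of 3 tested mesothelial markers rose, and 3 hepatocyte markers fell. At 48 h, 10 of 10 stellate and fibroblast, 9 of 9 macrophage, 3 of 3 tested neutrophil, 6 of 8 endothelial, 2 of 6 tested biliary and 1 of 3 tested mesothelial markers rose, and 4 hepatocyte and 1 biliary marker fell. Of 4 lymphocyte markers 1 was tested in livers, where it rose at 24 h and did not pass at 48 h. Over all tested genes, 19.0% rose and 10.2% fell in the peritumoral comparison, 21.3% and 20.5% at 24 h, and 25.0% and 23.9% at 48 h. The part of these cells in the changes of the family was not tested.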

How the data were processed

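RNA was sequenced from 12 libraries of mouse hepatocytes and livers, with the TruSeq Stranded mRNA kit, per the labels' protocols. Raw counts of 41128 genes were deposited by the authors beside a table of RPM (reads scaled to the library total), in which 100% of values came out as whole reads (tolerance 0.001 counts) and each of 17311 genes held at least 13 counts in all. STAR and DESeq2 and the builds mm10 and GRCm38 are named in the submitters' processing notes, and the gene annotation used for counting is not named there.

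Counts were tested with the quasi-likelihood F-test of edgeR 4.0.16 in R 4.3.3, after TMM scaling, a filterByExpr count filter (minimum 10) and Benjamini-Hochberg adjustment, in 1 fit of the 6 hepatocyte libraries (13442 genes), 1 of the 6 livers (13497 genes) and 1 of all 12 (14615 genes) for the difference of effects. Libraries of a group varied more in hepatocytes (biological coefficient of variation 0.358) than in livers (0.188). The script recovered changes made in simulated counts. GENCODE M21 (GRCm38) gave positions and exon lengths and matched 97.9% of gene IDs. Ratios against 1 to 3 counts have exact binomial intervals for counting error only.

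Members and lists were chosen with earlier results of these data known. Genes of the family were named by role, with values for every called member, for Timp1 to Timp4, Mmp2, Mmp9 and Mmp14, and for the 2 genes with the smallest p of each pathway list, of which 1 at 24 h is not reported here. Same-numbered libraries did not deviate together (correlations of -0.21, 0.12 and 0.08 in hepatocytes and 0.02, 0.02 and 0.00 in livers), so replicate numbers were not used as a block in the results reported. Alternatives were RLE factors, library totals, no count filter, DESeq2 1.42.0, limma 3.58.1 on the log2 of RPM with a pseudocount of 0.5 or 0.1, a threshold of 0.01, 1 fit of all libraries, a replicate block and leaving out each library. The older quasi-dispersion estimate of edgeR was added after seeing the data.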

Additional observations from a re-analysis of the deposited data

Results flagged for a closer look

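The TAA response of 5 members differed between 48 h and 24 h by the test of the difference itself, in the fit of the 6 livers, and both times share their controls. Adamts12 was higher at 48 h by a log2 fold change of 2.19, with 7.17 and 9.14 CPM at 48 h and 2.06 and 1.51 CPM at 24 h (edgeR adjusted p = 0.0235). Mmp8 was higher by 3.19, with 1.81 and 1.6 CPM at 48 h and 0.22 and 0.138 CPM at 24 h (edgeR adjusted p = 0.0276). Adamtsl2 was higher by 1.71, with 8.24 and 12.6 CPM at 48 h and 2.42 and 3.92 CPM at 24 h (edgeR adjusted p = 0.0474). Timp2 was higher by 0.88, with 24.7 and 30.6 CPM at 48 h and 15.4 and 14.7 CPM at 24 h (edgeR adjusted p = 0.0312). Timp3 was lower, at -1.10, with 23 and 28 CPM at 48 h and 55.2 and 54.2 CPM at 24 h (edgeR adjusted p = 0.0165). For all 5 genes the libraries of the 2 times did not overlap. That also held for members that were not called, such as Timp1, Mmp12 and Mmp15. The share over all genes was not computed, and the separation adds no support to a call. None of the 5 calls held in every fit that left out 1 library.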

How the results depend on the processing

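No called value changed direction under any alternative, while values that had not passed did. Peritumoral lower calls numbered 1, and 0 under library totals, both limma scales, a threshold of 0.01 and the replicate block, 2 with DESeq2 and in 1 fit of all libraries, and 0 to 2 without 1 library, while higher calls numbered 19, 27 in 1 fit of all libraries and 14 to 21 without 1 library. At 24 h higher calls numbered 18, 21 under library totals and both limma scales, where Adamtsl1, Adamtsl4 and Mmp17 were gained, 10 at the threshold of 0.01 and 10 to 17 without 1 library, and lower calls 1, 2 with DESeq2 and the replicate block, and 1 to 2 without 1 library. At 48 h lower calls numbered 2, 0 under library totals and both limma scales, 1 at the threshold of 0.01 and in 1 fit of all libraries, and 1 to 2 without 1 library, and higher calls 25 (18 to 25). Between 48 h and 24 h higher calls numbered 4, 7 with DESeq2, 8 with limma on log2(RPM + 0.5), 0 at the threshold of 0.01, 1 in 1 fit of all libraries and 0 to 6 without 1 library, and lower calls 1, then 0 at the threshold of 0.01 and in 1 fit of all libraries, and 0 to 1 without 1 library. Larger peritumoral effects numbered 2, 0 under library totals and the threshold of 0.01, 9 with DESeq2, 1 on each limma scale and 0 to 5 without 1 library, and smaller effects 5, 6 under library totals and with DESeq2, where Mmp9 was gained, 3 at the threshold of 0.01 and 2 to 5 without 1 library. Shares over all genes were computed for the main setting only, so the counts under the alternatives cannot be set against them. Beyond what the choice of samples, genes or threshold sets, the cause was not tested. With the replicate block 19 members were higher in the peritumoral, 14 in the 24 h, 23 in the 48 h and 3 in the 48 h against 24 h comparison. RLE factors changed no call of 156, and the older quasi-dispersion changed 1. With 2 libraries a group in livers, and 0 to 3 control counts for several members, a missed call there does not show equal levels.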
